A study of Homo sapiens with 8 samples.

Results

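FGA, FGB, FGG, TTR, APOB, APOA1, APOE, AGT, TF and MTTP encode plasma proteins and lipoprotein components that liver and intestine secrete, or that help to secrete them, and are tied to the nuclear receptor HNF4A. The 10 genes were chosen by name, with earlier results of these data known. They are the rows of the deposited table that carry these symbols, 10 of its 58870 genes. Their RNA was measured in 8 libraries of CFPAC-1, an established human cell line from a pancreatic ductal adenocarcinoma. Of these, 4 libraries came from cells with an empty vector and 4 from cells with an ADRA2A transgene, which encodes the alpha-2A adrenergic receptor. Both groups were grown for 72 hours in IMDM with 10% serum and antibiotics, and neither was treated. The comparison asked how the level of these genes differs when the receptor is overexpressed. The labels do not give the promoter of the transgene, whether a line was 1 clone, or whether the 4 libraries of a group came from separate cultures, so p-values measure the spread between these libraries, which may be technical.

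HNF4A, with FOXA and C/EBP factors, switches on many of the genes by which hepatocytes and enterocytes make plasma proteins and lipoproteins. Fibrinogen is built from 3 chains, the products of FGA, FGB and FGG, and thrombin turns it into fibrin during clotting. During the acute phase response, interleukin 6 acting through STAT3 raises fibrinogen in the liver. Apolipoproteins and the transfer protein MTTP package lipid into lipoprotein particles, while angiotensinogen, transthyretin and transferrin are secreted carriers or precursors that circulate in plasma.

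Library totals lay between 14427040 and 17528910 counts, and no library stood apart by depth. ADRA2A had 0 counts in each of the 4 empty-vector libraries and 112, 142, 154 and 172 counts in the ADRA2A libraries, at least 49.1-fold higher against a floor of 3 counts per library. Of 8 markers of pancreatic ductal epithelium, 7 passed the filter on low counts, with KRT19 between 2749 and 3378 CPM (counts scaled to library size with TMM factors). Of these 7, KRT19, MUC1 and EPCAM were higher in the ADRA2A libraries (log2 fold changes 0.2, 0.79 and 0.11), KRT7, SOX9 and KRT18 were lower (-0.43, -0.21 and -0.09), each with an edgeR adjusted p under 0.05, and KRT8 was not called. CFTR, the chloride channel of duct cells, did not pass, with 4 to 20 counts. Hepatocyte markers were near absent: ALB (albumin) had 0 to 7 counts, and the sum over 7 markers lay between 5.16 and 6.45 CPM in empty-vector and between 4.15 and 5.21 CPM in ADRA2A libraries, most of it CYP2E1. The summed level of 7 enterocyte markers was 11.4 to 14.7 CPM in empty-vector and 27.9 to 31.8 CPM in ADRA2A libraries. Nearly all of that sum was VIL1 and CDX2, whereas SI was at 0 in every library and ALPI, LCT and FABP2 had at most 2 counts. Among markers of other cell types, all 4 endocrine markers were at 0, CD3E was at 0, PTPRC had at most 4 counts and COL3A1 at most 1. Of the other fibroblast markers, LUM had 7 to 25 counts and was not called, and COL1A2 had 1 to 12. Endothelial markers were mixed, with CDH5 at no more than 1 count. PECAM1 (9 to 45 counts) was higher in the ADRA2A libraries, with a log2 fold change of 1.66 (adjusted p = 8.12e-05 by edgeR). Its empty-vector mean of 0.773 CPM lay near the minimum of the filter, 0.645 CPM. KDR (5 to 21 counts) averaged 1.23 CPM in empty-vector and 0.482 CPM in ADRA2A libraries. The latter mean lay below that minimum, so no test is given for KDR. The immune list as a whole summed to between 740.8 and 773 CPM in empty-vector and between 1211 and 1302 CPM in ADRA2A libraries, from CD74, CD68 and LYZ. The part of these marker shifts in the results was not tested. In bulk RNA, fewer cells of a type and less RNA per cell cannot be told apart.

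RefSeq promoter sequences were found for 7 of the 10 genes, and the 250 bases before the start sites of FGA and FGB are shown because these adjacent genes rose by similar folds (values follow). Both windows lie on GRCh38.p14, FGA at chr4:154590743-154590992 on the minus strand and FGB, from the first of its RefSeq starts, at chr4:154562730-154562979 on the plus strand. Capitals mark exact matches on either strand to TTGCNNAA (C/EBP) and TTCNNNGAA (STAT).
FGA: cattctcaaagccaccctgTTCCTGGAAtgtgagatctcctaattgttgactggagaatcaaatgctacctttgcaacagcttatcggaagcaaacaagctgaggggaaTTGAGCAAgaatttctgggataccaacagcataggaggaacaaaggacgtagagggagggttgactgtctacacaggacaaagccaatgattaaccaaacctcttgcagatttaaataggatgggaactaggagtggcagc
FGB: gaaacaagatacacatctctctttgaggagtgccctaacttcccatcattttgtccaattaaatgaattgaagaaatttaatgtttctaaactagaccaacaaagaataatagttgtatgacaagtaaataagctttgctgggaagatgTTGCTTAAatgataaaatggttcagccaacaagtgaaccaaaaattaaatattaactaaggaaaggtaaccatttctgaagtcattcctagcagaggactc
The C/EBP match lay 141 to 134 bases before the FGA start and 101 to 94 bases before the FGB start, or 132 to 125 bases before the second FGB start. FGA alone of this pair had a STAT match, TTCCTGGAA, and the same letters stood 170 to 162 bases before the RefSeq start of AGT. In any of their RefSeq windows, a C/EBP match was present in 3 of the 7 genes (FGA, FGB and TF), against 11% of all 27305 genes in the table read the same way, and a STAT match in 3 (FGA, AGT and MTTP; 8.09% of all genes). The HNF4 sequence CAAAGTNCA was in 0 of the 7 and in 1.17% of all genes. Per window, the shares of all 35116 promoters were 9.05% for C/EBP, 6.57% for STAT and 0.94% for HNF4. These are matches of letters in short windows and not measured binding sites.

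Across the 10 genes, 4 were abundant enough to be tested, and all 4 differed between the groups. One limit is that APOE reached the minimum of the filter in all 4 empty-vector libraries but in only 2 of the ADRA2A libraries. FGB, FGA and AGT were higher in the ADRA2A cells and APOE was lower, by edgeR's quasi-likelihood test at a Benjamini-Hochberg adjusted p under 0.05 over all 14785 genes tested. At that threshold 42.7% of all genes tested were called, 21.6% higher and 21.1% lower. Of the other 6 genes, FGG, APOA1, MTTP and TF had at most 13 counts in any library, and TTR and APOB had 0 counts in all 8. Each of the 4 also changed by 1 or more on the log2 scale in size, as did 4.66% of all genes tested. For all 4 genes tested, 3 higher and 1 lower, the 4 libraries of each group lay apart. Of all genes tested, 39.2% did not overlap, 19.7% higher and 19.5% lower. The other 6 of the 10 genes overlapped or had no counts.

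**Figure D1:**
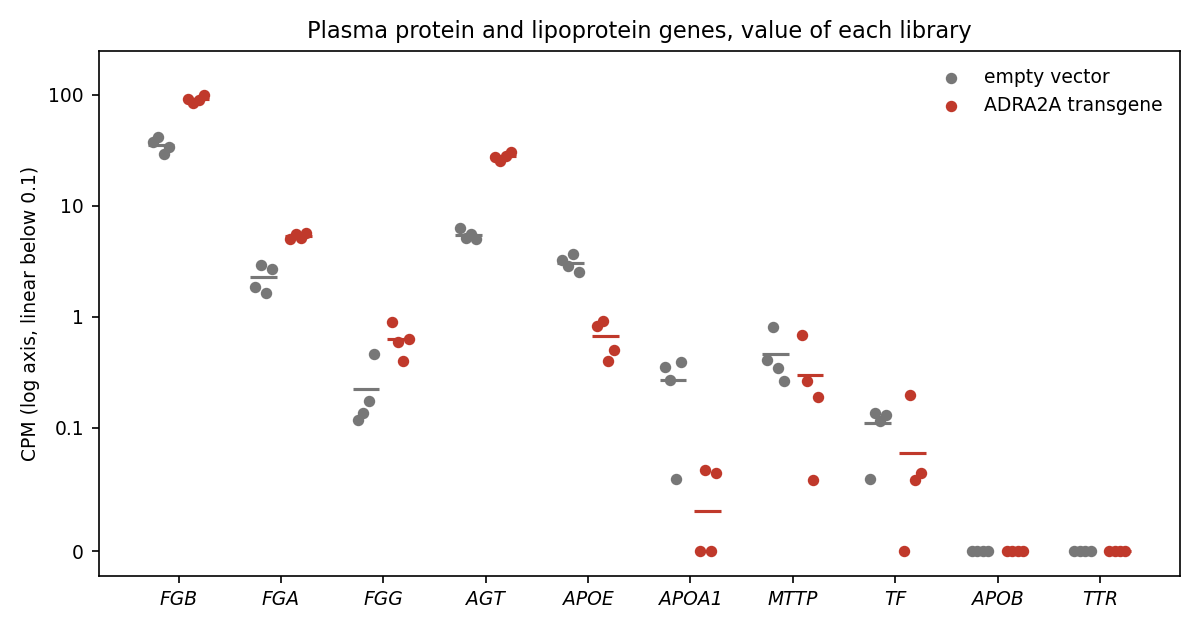
Level of each of the 10 genes in each library (CPM, log axis that is linear below 0.1); points are libraries, horizontal bars are group means of 4. FGB, FGA and AGT sit higher in all 4 ADRA2A libraries and APOE sits lower in all 4; TTR and APOB are at 0 throughout.

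FGB encodes the fibrinogen beta chain and was the most abundant of the 10 genes. Gene positions are those of GENCODE on GRCh38. Counts of FGB (ENSG00000171564.11; chromosome 4, 154563011 to 154572807, plus strand, 8 exons in the canonical transcript) were 638, 613, 504 and 519 in the empty-vector libraries and 1332, 1275, 1584 and 1586 in the ADRA2A libraries. Scaled to depth, these were 37.4, 41.6, 29.3 and 34.0 CPM against 92.2, 84.1, 90.7 and 100.3 CPM. The lowest ADRA2A library was far above the highest empty-vector library. The group means were 35.6 ± 5.22 and 91.8 ± 6.65 CPM (SD over 4 libraries), or a log2 fold change of 1.37 ± 0.08 (SE; adjusted p = 2.45e-11 by edgeR). Among the genes tested, 183 had a larger positive log2 fold change.

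FGA encodes the fibrinogen alpha chain, the one from which thrombin cuts fibrinopeptide A. FGA (ENSG00000171560.15; chromosome 4, 154583126 to 154590742, minus strand, 5 exons) had 32, 43, 28 and 41 counts in the empty-vector libraries and 73, 85, 90 and 90 in the ADRA2A libraries. FGA thus stood at 2.28 ± 0.622 CPM in the first group and at 5.38 ± 0.321 CPM in the second (SD over 4 libraries), without overlap. Its change of 1.25 ± 0.19 on the log2 scale (SE; adjusted p = 2.52e-05 by edgeR) was close to that of FGB, although FGA was far less abundant and so less precisely measured.

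FGG encodes the gamma chain, through which fibrin binds integrins and factor XIII. FGG (ENSG00000171557.16; chromosome 4, 154604134 to 154612967, minus strand, 9 exons) had 2, 2, 3 and 7 counts in the empty-vector libraries and 13, 9, 7 and 10 in the ADRA2A libraries, too few to pass the filter. The highest empty-vector library, replicate 4, overlapped the lowest ADRA2A library. Summed over the libraries, 14 counts against 39 gave a depth-adjusted ratio of 2.85, with an exact 95% interval of 1.51 to 5.68 that covers counting error only. With no filter beyond 1 count in any library, which tested 25002 genes, the edgeR log2 fold change of FGG was 1.48 ± 0.60 (SE; adjusted p = 0.0503). That fit gave smaller p-values than the filtered fit at a like SE. For FGA the SE was 0.19 in both, with adjusted p = 7.94e-10 against 2.52e-05 by edgeR. Its p-values are thus not comparable with those of the filtered fit.

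Although fibrinogen needs all 3 chains, their RNAs were very unequal here. Per kilobase of the canonical transcript (3641 bases for FGB, 2209 for FGA and 2072 for FGG), FGB stood at 9.76 ± 1.43, FGA at 1.03 ± 0.282 and FGG at 0.107 ± 0.0771 CPM per kb in the empty-vector cells (SD, n = 4). In the ADRA2A cells the levels were 25.2 ± 1.83 for FGB, 2.43 ± 0.145 for FGA and 0.305 ± 0.0991 CPM per kb for FGG. FGB thus made up 86.7% to 91.9% of the summed chains in the empty-vector libraries and 89.1% to 90.8% in the ADRA2A libraries. The ratio of FGB to FGA, both per kb, was 12.1, 8.65, 10.9 and 7.68 in the empty-vector libraries and 11.1, 9.10, 10.7 and 10.7 in the ADRA2A libraries. These ranges overlapped, so the rise in both chains left their proportion within the spread of the empty-vector libraries. Across the 8 libraries, deviations of FGA and FGB from their group means had r = 0.61, a description over libraries that share their depth scaling.

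**Figure D2:**
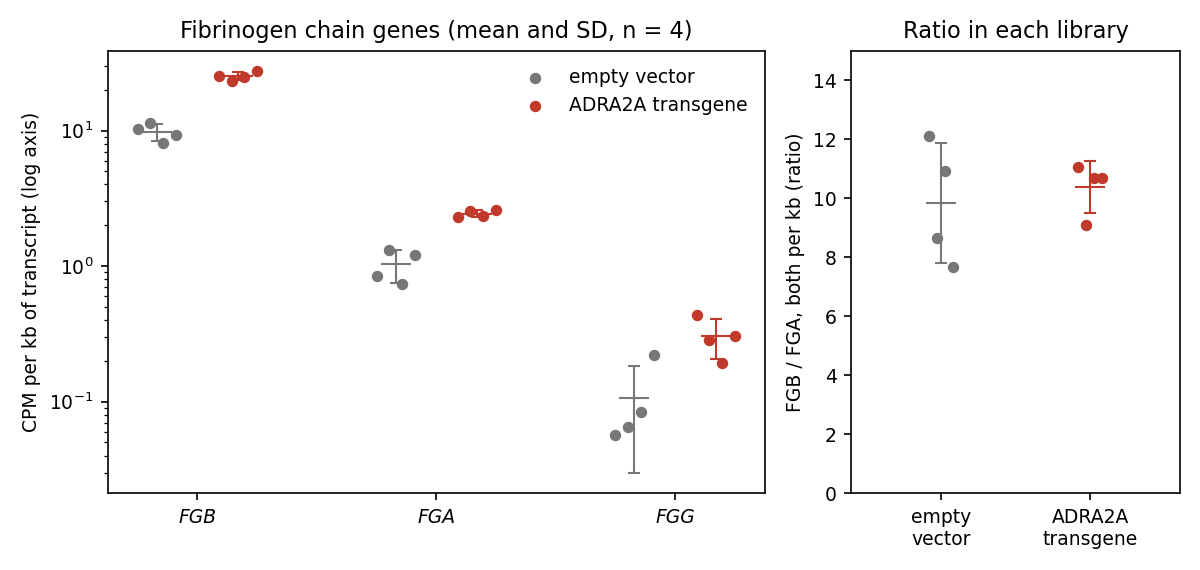
Left, level of the 3 fibrinogen chain genes per kb of canonical transcript (log axis); right, ratio of FGB to FGA in each library. Points are libraries, bars are mean and SD (n = 4); FGB stands above FGA and FGA above FGG in every library, and the ratio lies between 7.68 and 12.1 in the empty-vector and between 9.10 and 11.1 in the ADRA2A libraries.

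AGT, which encodes angiotensinogen, the precursor from which angiotensin peptides are cut, had the largest fold change of the genes tested here among the 10. AGT (ENSG00000135744.8; chromosome 1, 230690776 to 230745576, minus strand, 5 exons in the canonical transcript) had 108, 75, 95 and 76 counts in the empty-vector libraries and 401, 388, 487 and 484 in the ADRA2A libraries. This was 6.32, 5.09, 5.52 and 4.97 CPM against 27.8, 25.6, 27.9 and 30.6 CPM. Every ADRA2A library lay far above every empty-vector library. From 5.48 ± 0.612 to 27.96 ± 2.05 CPM (SD over 4 libraries), AGT differed by a log2 fold change of 2.35 ± 0.09 (SE; adjusted p = 2.18e-13 by edgeR), and 38 of the genes tested had a larger positive one. The extended gene model of AGT overlaps COG2, a Golgi complex gene on the opposite strand. COG2 rose by a log2 fold change of 0.29 ± 0.06 (SE; adjusted p = 0.0012 by edgeR), and since the use of strand is not given in the sources used here, reads from the shared stretch cannot be told apart.

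APOE encodes apolipoprotein E, the ligand by which lipoprotein remnants bind the LDL receptor family, and it moved the opposite way. Counts of APOE (ENSG00000130203.10; chromosome 19, 44905791 to 44909393, plus strand, 4 exons) were 55, 42, 64 and 39 in the empty-vector libraries and 12, 14, 7 and 8 in the ADRA2A libraries. The highest ADRA2A library was well below the lowest empty-vector library. APOE fell from 3.09 ± 0.503 to 0.665 ± 0.251 CPM (SD over 4 libraries), or a log2 fold change of -2.22 ± 0.28 (SE; adjusted p = 2.96e-06 by edgeR). APOE passed the filter on low counts through its empty-vector libraries: all 4 of these and 2 of the ADRA2A libraries reached the minimum of 0.645 CPM.

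APOA1 encodes the main protein of high-density lipoprotein. APOA1 (ENSG00000118137.9; chromosome 11, 116835751 to 116837622, minus strand) had 6, 4, 1 and 6 counts in the empty-vector and 0, 1, 0 and 1 in the ADRA2A libraries, and the groups overlapped at 1 count. The summed counts of 17 and 2 gave a ratio of 0.12, with an exact 95% interval of 0.0135 to 0.507 for counting error only. In the fit with no filter, APOA1 had a log2 fold change of -2.79 ± 1.09 (SE; adjusted p = 0.0408 by edgeR), which rests on these few counts. As said for FGG, p-values of that fit are not comparable with those of the filtered fit, so no difference is read from it.

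MTTP encodes the microsomal triglyceride transfer protein, which loads lipid onto apolipoprotein B. MTTP (ENSG00000138823.13; chromosome 4, 99564081 to 99623997, plus strand) had 7, 12, 6 and 4 counts in the empty-vector and 10, 4, 1 and 3 in the ADRA2A libraries. The groups overlapped widely, and 29 counts against 18 gave a ratio of 0.635 (exact 95% interval 0.332 to 1.18, counting error only). TF, which encodes the iron carrier transferrin (ENSG00000091513.16; chromosome 3, 133746040 to 133796641, plus strand), had between 0 and 3 counts in every library, 7 in all in the empty-vector and 5 in the ADRA2A group. For TF the ratio of 0.73 had an interval of 0.183 to 2.67, so no difference was detectable at this depth. The gene model of TF overlaps SRPRB on the same strand, which had 727 to 1038 counts.

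APOB (ENSG00000084674.14; chromosome 2, 21001429 to 21044073, minus strand), the structural protein of chylomicrons and very low density lipoprotein, had 0 counts in all 8 libraries. TTR (ENSG00000118271.10; chromosome 18, 31557009 to 31598833, plus strand), which carries thyroxine and the retinol-binding protein, likewise had 0 counts. A count of 0 in 1 library allows a level of up to 0.19 CPM on average (3 counts, counting error only). Per kb the order of the 10 genes in the ADRA2A cells was FGB, AGT at 13.2 ± 0.97, FGA and APOE at 0.571 ± 0.216 CPM per kb (SD, n = 4), with the other 6 below these. In the empty-vector cells APOE at 2.65 ± 0.431 and AGT at 2.59 ± 0.289 CPM per kb (SD, n = 4) did not differ beyond their spread.

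Neighbouring genes were then read around each of the 10 genes, as all tested genes that start within 500000 bases. The fibrinogen genes lie side by side on chromosome 4 between PLRG1, a splicing factor gene, and LRAT, the retinol esterifying enzyme. PLRG1, 12611 bases from the FGB start, had a log2 fold change of -0.16 ± 0.05 (SE; adjusted p = 0.0116 by edgeR). LRAT, 13978 bases beyond the FGG start, fell from 6.91 to 3.08 CPM, or a log2 fold change of -1.17 ± 0.17 (SE; adjusted p = 1.10e-05 by edgeR). FGA and FGB rose between a pair of genes that were lower.

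Around APOE, 22 neighbours were tested, of which 8 were lower and 2 higher (median -0.17 on the log2 scale), or 45.5% called against 42.7% of all genes tested. The nearest downstream neighbour, APOC1, which encodes another apolipoprotein and starts 8456 bases away, went from 5.0 to 1.85 CPM. APOC1 had a fitted value of -1.43 ± 0.20 on the log2 scale (SE; adjusted p = 8.39e-06 by edgeR), the lowest among these 22. Of 7 tested neighbours of AGT, 4 were higher and 1 lower (71.4% called), with log2 fold changes between -0.63 and 0.29, all far smaller in size than that of AGT. Of 9 tested neighbours of MTTP, 2 were higher and 3 lower (55.6% called). The alcohol dehydrogenase genes ADH6 and ADH1C rose by log2 fold changes of 2.56 ± 0.16 and 1.3 ± 0.04 (SE; adjusted p = 8.84e-11 and 2.26e-14 by edgeR). ADH5, of the same family, fell by 0.15 on the log2 scale (SE 0.04; adjusted p = 0.00637 by edgeR), as did DAPP1 by 0.33 and H2AFZ by 0.4 (adjusted p = 0.000332 and 3.82e-07 by edgeR). TRMT10A, which starts 42 bases from MTTP, was expressed at 13.4 and 13.2 CPM with no difference called (log2 fold change -0.03 ± 0.08, SE; adjusted p = 0.794 by edgeR).

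**Figure D3:**
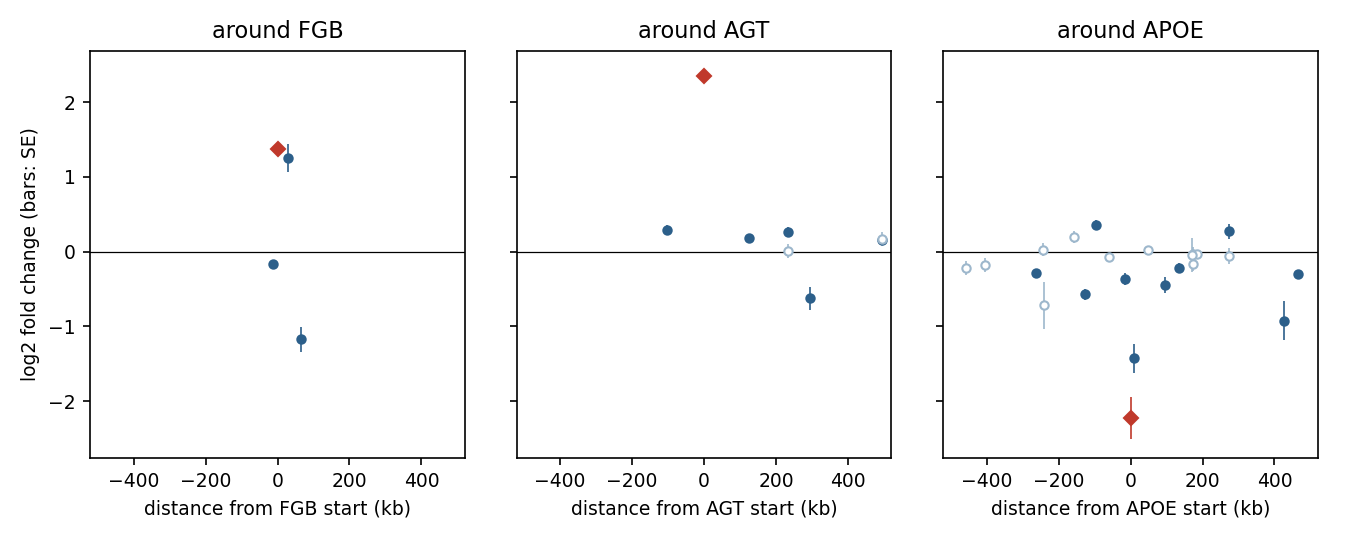
Fitted log2 fold change (ADRA2A against empty vector, bars SE) of all tested genes that start within 500000 bases of FGB, AGT or APOE, against distance from that gene's start in genome order; the diamond is the gene itself, filled circles are neighbours with an adjusted p under 0.05 and open circles the others. FGA at 1.25 is the only neighbour of FGB drawn above 0, and APOC1 at -1.43 is the neighbour closest to APOE in value.

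Upstream factors were taken from a list of 32 hepatic and intestinal transcription factors, of which 22 were tested. In the ADRA2A cells 10 were higher and 3 lower, or 59.1% called against 42.7% of all genes tested, and their median log2 fold change was 0.17 against 0.00 over all genes. This list and those below were chosen with earlier results of these data known, so their shares called are descriptions only. HNF4A stood at 15.4, 15.8, 17.2 and 16.1 CPM in the empty-vector and at 32.6, 30.0, 32.7 and 28.8 CPM in the ADRA2A libraries. The groups did not overlap, and HNF4A rose by 0.94 ± 0.07 (log2, SE; adjusted p = 1.77e-09 by edgeR). Its paralog HNF4G rose from 22.6 ± 1.45 to 41.5 ± 2.36 CPM (SD over 4 libraries; log2 fold change 0.88 ± 0.06, SE; adjusted p = 1.24e-09 by edgeR). PPARG, a lipid-sensing nuclear receptor, fell from 49.5 ± 3.36 to 30.9 ± 2.87 CPM (log2 fold change -0.68 ± 0.07, SE; adjusted p = 8.77e-08 by edgeR). The liver factor CEBPA had at most 5 counts in a library and was not tested, and FOXA1, FOXA2 and FOXA3 were not called. Of the other C/EBP factors listed, CEBPB was not called, at 24.2 CPM in empty-vector and 24.1 CPM in ADRA2A libraries. CEBPD rose from 9.66 ± 0.742 to 12.2 ± 1.28 CPM (SD over 4 libraries; log2 fold change 0.34 ± 0.10, SE; adjusted p = 0.0106 by edgeR).

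**Figure D4:**
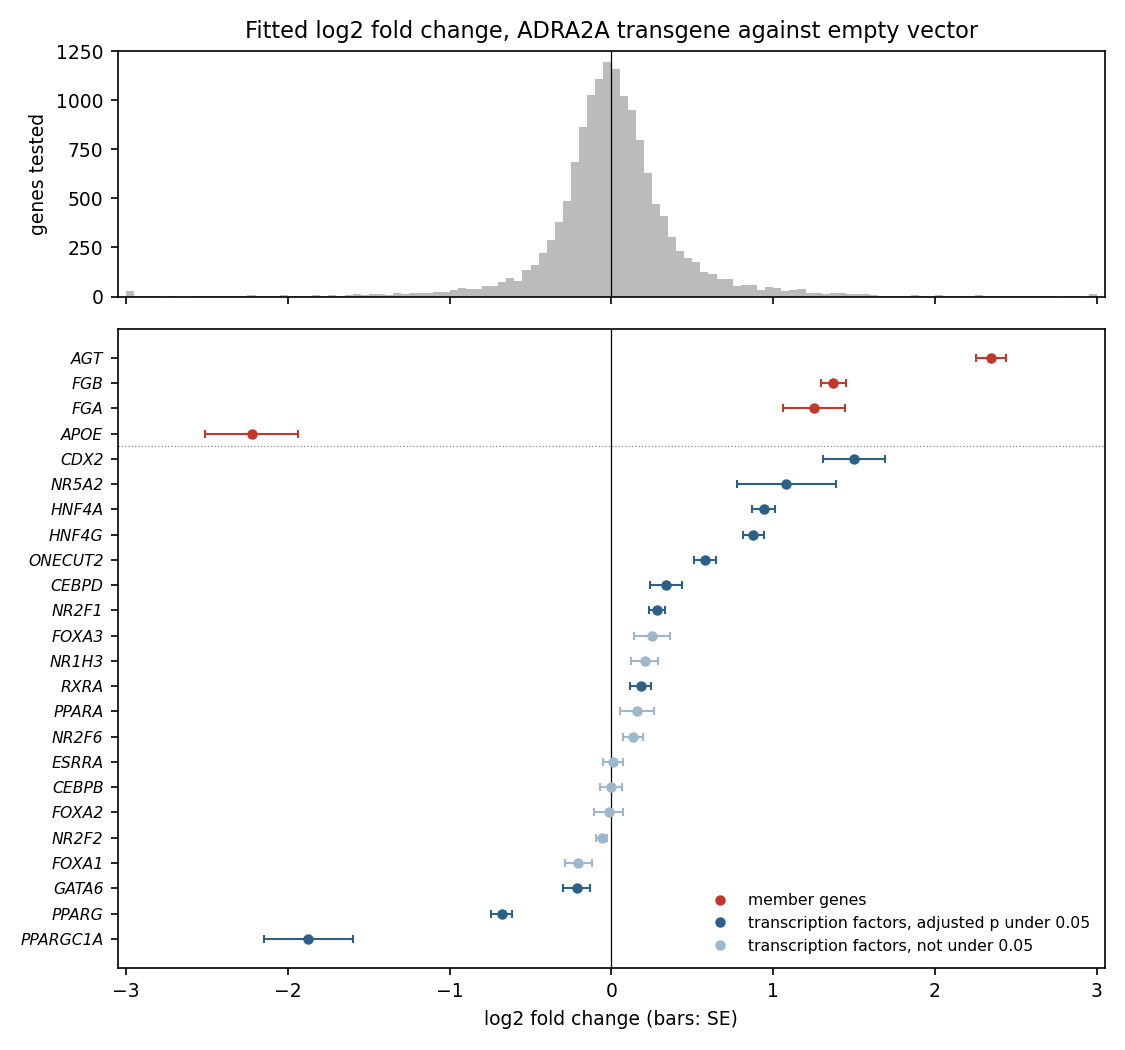
Top, distribution of the fitted log2 fold change over all 14785 genes tested (values beyond 3 in size are placed in the end bins); bottom, log2 fold change with SE of the 4 tested plasma protein and lipoprotein genes and of 20 of the 22 tested transcription factors. AGT at 2.35 lies above every factor drawn, and APOE at -2.22 lies below every factor drawn.

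The acute phase pathway that raises fibrinogen in liver was read from 12 genes, 11 of them tested, with 6 higher and 2 lower. This was 72.7% called against 42.7% of all genes tested, with a median of 0.18 on the log2 scale. STAT3 rose from 203.5 ± 7.23 to 250.9 ± 8.79 CPM (SD over 4 libraries; log2 fold change 0.30 ± 0.04, SE; adjusted p = 1.93e-06 by edgeR). The interleukin 1 receptor gene IL1R1 rose by 0.63 ± 0.05 and the kinase gene JAK1 by 0.31 ± 0.04 (log2, SE; adjusted p = 6.26e-09 and 1.04e-06 by edgeR). IL6 itself was low and went from 3.47 ± 0.709 to 2.2 ± 0.182 CPM (log2 fold change -0.66 ± 0.20, SE; adjusted p = 0.0138 by edgeR). LIF, a cytokine of the interleukin 6 family, fell by 0.35 on the log2 scale (SE 0.04; edgeR adjusted p = 1.13e-06). SOCS3, a feedback target of STAT3, was not called, at 60.8 and 62.5 CPM.

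Of 30 further plasma protein genes, 7 were tested, with 4 higher and 1 lower, or 71.4% called against 42.7% of all genes tested. The other 23 did not pass the filter, among them ALB and AFP. Of the 7, ITIH2, ITIH4, FGL1 and ANGPTL4 had mean levels of at most 1.26 CPM in both groups. CP, the copper carrier ceruloplasmin, went from 75.8, 74.4, 48.2 and 54.7 CPM in the empty-vector to 406.7, 375, 355.7 and 416.6 CPM in the ADRA2A libraries. CP thus rose by a log2 fold change of 2.62 ± 0.10 (SE; adjusted p = 6.09e-14 by edgeR), without overlap. HABP2, a hyaluronan-binding serine protease of plasma, rose from 24.9 ± 1.93 to 87.2 ± 11.7 CPM (SD over 4 libraries; log2 fold change 1.81 ± 0.08, SE; adjusted p = 1.04e-12 by edgeR). Without empty-vector replicate 2, the number called in the list was 3 in place of 5.

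Among 22 coagulation factors and regulators 10 were tested, with 6 higher and 2 lower (median log2 fold change 0.21), or 80.0% called against 42.7% of all genes tested. F5, the cofactor of prothrombin activation, rose from 45.6 ± 3.37 to 128.1 ± 12.4 CPM (SD over 4 libraries; log2 fold change 1.49 ± 0.06, SE; adjusted p = 5.36e-13 by edgeR). PROS1, which encodes the anticoagulant protein S, rose by 1.17 ± 0.07 and PLAT, the tissue plasminogen activator, by 0.56 ± 0.05 (log2, SE; adjusted p = 7.96e-11 and 4.52e-08 by edgeR). F3, the tissue factor that starts clotting, went from 589.7 ± 26.1 to 412.7 ± 25.2 CPM (log2 fold change -0.52 ± 0.04, SE; adjusted p = 5.82e-09 by edgeR), and THBD, the anticoagulant thrombomodulin, fell by 0.31 on the log2 scale (SE 0.06; adjusted p = 0.000437 by edgeR). F2 (prothrombin), whose product acts on fibrinogen, had at most 6 counts in a library.

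Lipoprotein genes beyond the 10 were mixed. Of 17 other apolipoprotein genes, 8 were tested, with 2 higher and 2 lower (50% called against 42.7% of all genes tested). Without empty-vector replicate 2 the number called was 2 in place of 4. APOL1 rose by 0.26 ± 0.03, APOL6 by 0.16 ± 0.05 (log2, SE; adjusted p = 1.78e-06 and 0.02 by edgeR), and CLU (clusterin) fell by 0.26 (log2, SE 0.08; edgeR adjusted p = 0.0102). APOA2, APOA4, APOA5, APOC2, APOC3 and APOC4 had 0 counts in all libraries. Of 19 genes of lipoprotein assembly and secretion, 14 were tested, with 7 higher and 1 lower (57.1% called). DGAT2, the last enzyme of triglyceride synthesis, rose by 0.71 ± 0.08 and SAR1B, the COPII GTPase of chylomicron export, by 0.24 ± 0.05 (log2, SE; adjusted p = 7.26e-07 and 3.20e-04 by edgeR). MIA2, which helps to load large cargo at the endoplasmic reticulum, rose by 0.36 ± 0.04 (log2, SE; adjusted p = 5.73e-07 by edgeR). Receptors and exporters comprised 15 genes, 9 of them tested, with 5 higher and 2 lower (77.8% called against 42.7% of all genes tested). The remnant receptor gene LRP1 rose by 1.02 ± 0.10, whereas the endothelial lipase gene LIPG and the cholesterol exporter ABCA1 had log2 fold changes of -1.09 ± 0.05 and -0.83 ± 0.08 (SE; adjusted p = 8.47e-08, 3.40e-12 and 5.08e-08 by edgeR).

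Genes that act with AGT, TF and TTR were read in the same way. In the angiotensin system list of 13 genes, 10 were tested, with 5 higher and 2 lower (70.0% called). AGTR1, the angiotensin II receptor, rose from 16.6 ± 1.25 to 27.6 ± 1.57 CPM (SD over 4 libraries; log2 fold change 0.73 ± 0.07, SE; adjusted p = 1.44e-07 by edgeR). ACE, the converting enzyme, rose by 0.46 ± 0.12 and ATP6AP2, an accessory subunit of the vacuolar proton pump, by 0.41 ± 0.05 (log2, SE; adjusted p = 0.00369 and 1.13e-06 by edgeR). Of 16 genes of iron uptake and storage, 12 were tested, 4 higher and 4 lower (median 0.03 on the log2 scale). The share called was 66.7% against 42.7% of all genes tested. The iron exporter SLC40A1 rose by 0.69 ± 0.07, while ACO1 and FTL had -0.52 ± 0.05 and -0.34 ± 0.03 (log2, SE; adjusted p = 3.47e-07, 3.01e-08 and 5.18e-08 by edgeR). In the thyroid hormone and retinol list of 12 genes, 8 were tested, with 4 higher and 3 lower (87.5% called against 42.7% of all genes tested). STRA6, the receptor that takes up retinol from its plasma carrier, rose by 0.89 ± 0.08 and THRA, a thyroid hormone receptor, by 0.5 ± 0.04 (log2, SE; adjusted p = 1.35e-08 and 3.22e-09 by edgeR). THRB, another thyroid hormone receptor, had a log2 fold change of -0.27 ± 0.08 (SE; adjusted p = 0.0133 by edgeR).

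The genes whose pattern over the 8 libraries was most like that of FGB, among 10381 tested genes of at least 10 CPM, were the receptor tyrosine kinase gene ERBB3 and the interferon-inducible gene IFI16, with Pearson r of log2 CPM of 0.9993 and 0.9988. For AGT they were HLA-DRA, an MHC class II chain gene, and RNF128, a ubiquitin ligase gene, with r of 0.9972 and 0.9966. Such values mostly restate the difference between the groups: 722 genes had r over 0.95 with FGB and 684 with AGT. FGA and APOE were below 10 CPM and were not read in this way.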

How the data were processed

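RNA of 8 CFPAC-1 libraries was sequenced. The authors deposited RSEM estimated counts per gene, not scaled between samples. Per the submitters' processing notes, cutadapt, STAR, RSEM and DESeq2 were used with hg38; versions, the annotation release and the use of strand are not given in the sources used here. All 8 columns were assigned by the name in the sample titles.

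Estimated counts were rounded to whole numbers, filtered with filterByExpr (14785 of 58870 genes kept), scaled by TMM and tested with edgeR 4.0.16 in R 4.3.3 (glmQLFit, glmQLFTest), with Benjamini-Hochberg adjustment over all genes tested and a threshold of 0.05. The SE of a log2 fold change is its size divided by the square root of F. The procedure was tested on simulated data. CPM are TMM-scaled, and values per kb use the GENCODE release 44 canonical transcript on GRCh38, matched by Ensembl identifier. Intervals of summed counts are exact (Clopper-Pearson) and cover counting error only.

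The 10 genes and the 10 further lists were chosen with earlier results of these data known. All 10 genes were named, with HNF4A and STAT3, up to 3 called genes per list of at least 10 CPM with the largest fold change, neighbours within 500000 bases and the 2 most similar genes; other names were chosen after their values were seen. Some genes that this rule names are not reported here. Alternatives were DESeq2 1.42.0, limma 3.58.1 voom, RLE and upper quartile factors, other filters, a fit with the replicate block, and fits that left out 1 library each.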

Additional observations from a re-analysis of the deposited data

Results flagged for a closer look

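Each group of 4 libraries was examined for a library far from the other 3, over 81 groups of values, of which chance would flag about 1 in 20. For FGG, the empty-vector replicate 4 stood at 0.4582 CPM, from 7 counts, while the other empty-vector libraries lay between 0.1171 and 0.1743 CPM. ADRA2A replicate 1 stood apart for 3 of the further genes: LIF at 98.2 CPM (the others 104.3 to 105.5), PROS1 at 113.8 CPM (the others at most 101.6) and THRA at 152.3 CPM (the others 158.9 to 160.2). In all 3 the gap was smaller than the difference between the group means.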

How the results depend on the processing

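FGB, FGA and AGT kept their direction and an adjusted p under 0.05 in all 15 other fits, and APOE in the 14 in which it was tested. With each library left out in turn, the log2 fold change lay between 1.29 and 1.45 for FGB, 1.12 and 1.39 for FGA, 2.3 and 2.42 for AGT, and -2.43 and -2.03 for APOE. Of the 10 genes, the number lower was 1, and it was 2 with no filter (APOA1 added) and 0 where a mean of 50 counts was required (APOE not tested). The added call of APOA1 rests on few counts and on p-values not comparable with those of the filtered fit. With the replicate block, the log2 fold changes were 1.38 for FGB, 1.26 for FGA, 2.35 for AGT and -2.23 for APOE, 6400 genes were called in place of 6314, and no call changed for the 10 genes. Replicate numbers did not pair the libraries, since deviations of same-numbered libraries had r of -0.02, -0.04, 0.07 and -0.02, and not every library correlated best with its own number. Called genes in the lists moved by over 1.5 times in 4 cases: other liver plasma proteins (5) had 2 called where a mean of 50 counts was required, and the angiotensin system list (7) had 4, in both because fewer genes were tested. Without empty-vector replicate 2, other liver plasma proteins had 3 and other apolipoproteins (4) had 2; the cause was not tested. Leaving out 1 library gave between 3 and 6 calls for the former, and 2 and 4 for the latter. Depth limits FGG, APOA1, MTTP and TF, whose libraries held at most 13 counts of each.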

Other observations

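Several list genes of low abundance, chosen after their values were seen, are given here. DIO2, the deiodinase that activates thyroid hormone, fell from 8.03 ± 1.25 to 0.798 ± 0.173 CPM (SD over 4 libraries), or a log2 fold change of -3.33 ± 0.20 (SE; adjusted p = 8.64e-11 by edgeR). CRYM, a cytosolic thyroid hormone binding protein, rose from 0.82 ± 0.334 to 3.52 ± 0.743 CPM (log2 fold change 2.09 ± 0.28, SE; adjusted p = 5.02e-06 by edgeR). CIDEB, a lipid droplet protein of lipoprotein lipidation, stood at 0.479 ± 0.0756 and 1.99 ± 0.447 CPM (SD over 4 libraries). FGL1, a fibrinogen-like protein of the liver, stood at 0.192 ± 0.202 and 0.949 ± 0.183 CPM, with 0 to 20 counts per library. CIDEB and FGL1 passed the filter on low counts through their ADRA2A libraries alone (0 of 4 empty-vector libraries reached its minimum), so a gene with their empty-vector level had to be higher in the ADRA2A group to be tested, and no test is given for them.

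Peptidase genes of angiotensin metabolism were among the genes that fell. MME (neprilysin) and ENPEP (aminopeptidase A) had log2 fold changes of -1.54 ± 0.23 and -0.95 ± 0.24 (SE; adjusted p = 1.94e-05 and 0.00353 by edgeR).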
